A study of Mus musculus with 3 samples.

Results

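In mouse pro-B cells, 257 bins of 1 kb were called for H3R2me2sK4me3 and for neither H3K4me3 nor H3R2me2s. H3R2me2sK4me3, called the combined mark here, is symmetric dimethylation of arginine 2 together with trimethylation of lysine 4 on the same histone H3 tail. The bins were chosen by their read counts: 16 or more combined-mark reads, under 25 H3K4me3 reads and under 15 H3R2me2s reads. They made up 0.776% of the 33137 bins called for the combined mark (exact 95% interval 0.684 to 0.876), and 0.0112% of the 2285014 bins that held a read in any library. Since the counts in the 3 libraries chose the bins, those counts are given as a description.

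H3K4me3 is the mark of active promoters, laid down by the SET1 and MLL methyltransferase complexes and bound by reader proteins such as those with PHD fingers. Symmetric dimethylation of the neighbouring arginine is made by protein arginine methyltransferases, among them PRMT5, and leaves the tail open to binding by WDR5, a subunit of the SET1 and MLL complexes. Asymmetric dimethylation of the same arginine, made by PRMT6, opposes lysine 4 trimethylation. A tail with both marks carries trimethylated lysine 4, so a bin called for the combined mark and not for H3K4me3 raises the question of how much H3K4me3 such a bin holds and how near it lies to H3K4me3 chromatin.

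Chromatin immunoprecipitation followed by sequencing was done on 1 library per antibody from RAG2-/- pro-B cells transformed with Abelson virus, a culture model of an early B-lineage cell without the recombinase subunit RAG2. The strain label reads C57BL/7. All 3 libraries share the cells and the genotype and differ, per the labels, in the antibody: 1 made in the submitters' laboratory against the combined mark, a commercial one (Abcam) against H3K4me3, and another of the laboratory's own against H3R2me2s. The libraries held 7128852, 13898471 and 6923765 mapped reads, in that order. No input library was used here, the genotype and the cell type were not checked in the reads, and no test between antibodies was possible with 1 library each. Intervals are exact binomial or Poisson 95% intervals for counting error alone: the reads carry no molecular identifiers, and copies made by PCR are not separate molecules.

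A bin was called at 16 or more reads for the combined mark, 25 for H3K4me3 and 15 for H3R2me2s. Each limit is the higher of 4 times the library's mean per bin and the lowest count whose Poisson upper tail is under 1e-06. The mean set the limit for H3K4me3, and the Poisson tail set those for the combined mark and H3R2me2s. By these limits 1.45%, 2.45% and 1.23% of bins were called for the combined mark, H3K4me3 and H3R2me2s. Background is the mean count of those bins that had no called bin within 5 kb, and was 1.86, 2.98 and 2.35 reads per bin for the same libraries. The limits therefore stood at 8.60, 8.39 and 6.37 times background, and at 2.24, 1.80 and 2.17 CPM (reads per 1000000 mapped reads).

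The bins held substantial H3K4me3 and lay close to the limits that chose them. The combined mark ranged from 16 to 31 reads with a median of 17, and averaged 9.40 times background. H3K4me3 reads ranged from 4 to 24 with a median of 20, and averaged 6.32 times background. H3R2me2s ranged from 0 to 14 reads with a median of 7, and averaged 3.12 times background. The bins were thus crowded at the lowest combined-mark counts the rule admits and at the highest H3K4me3 counts. Of the 257 bins, 105 had exactly 16 combined-mark reads and 203 had 16 to 18. Exactly 24 H3K4me3 reads were found in 43 bins, and 139 bins had 20 to 24. Fewer than 10 H3K4me3 reads were found in 12 bins.

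Bins just across the combined-mark limit and the H3K4me3 limit had counts much like those just inside. The 105 bins with 16 combined-mark reads averaged 17.6 H3K4me3 reads, against 17.1 in the 223 bins with 15 combined-mark reads that met the other limits. The 43 bins with 24 H3K4me3 reads averaged 17.9 combined-mark reads, and so did the 38 bins with 25 H3K4me3 reads that met the other limits (17.9). Only 5 bins had 14 H3R2me2s reads, and 6 had 15 while meeting the other limits. These averaged 17.4 and 19.5 combined-mark reads and 18.4 and 19.8 H3K4me3 reads, in that order.

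**Figure D1:**
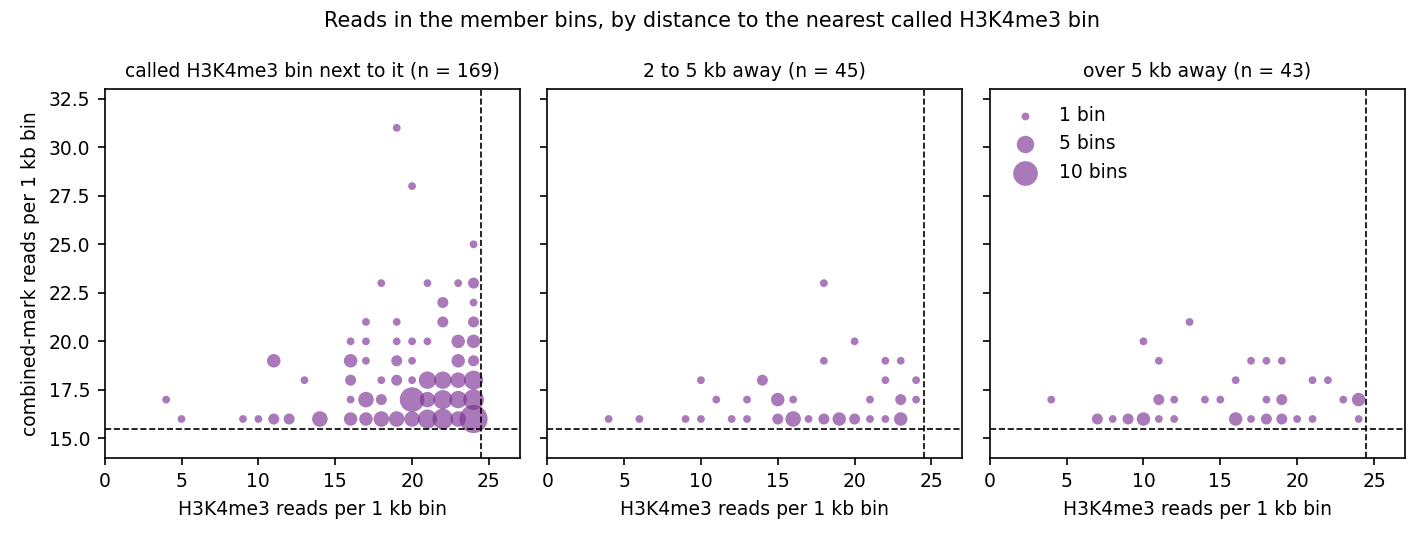
Combined-mark reads (vertical axis) against H3K4me3 reads (horizontal axis) per 1 kb bin for the 257 bins, in 3 panels by distance to the nearest called H3K4me3 bin; the area of a circle gives the number of bins and dashed lines mark the limits. The corner of 16 to 18 combined-mark reads and 20 to 24 H3K4me3 reads holds 109 of the 257 bins, 87 of them in the left panel.

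The CPM ratio of the combined mark to H3K4me3, over the summed reads of the 257 bins, was 1.81 (1.74 to 1.89), from 4494 combined-mark and 4841 H3K4me3 reads. It was 0.683 (0.680 to 0.686) over the 8825 bins called for the combined mark and H3K4me3 without H3R2me2s, and 0.888 (0.886 to 0.889) over the 24023 bins called for all 3 marks. Over bins called in no library it was 1.15 (1.15 to 1.16), so a ratio above 1 was not particular to the 257. Over the 32 bins called for the combined mark and H3R2me2s without H3K4me3 it was 14.6 (13.3 to 15.96), where the combined mark had a median of 18 reads and a highest count of 1071. The limits alone allow no ratio below 1.30 in a member bin, so a high ratio was fixed by the choice. Single bins ran from 1.30 to 8.29 with a median of 1.69. In 75 of the 257 the interval of the ratio lay above 1. These intervals rest on the counts that chose the bins, and the same number was not taken for other bins. The ratio of the combined mark to H3R2me2s was 2.31 (2.19 to 2.44) in the 257 bins and 2.30 (2.28 to 2.31) in the 8825 bins. The antibodies were not calibrated to a common scale, so none of these ratios is a share of marked tails.

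By the rule that chose them, the 257 bins are the upper end of the combined mark among bins of equal H3K4me3 count. The counts below describe how far out that end lies. There were 12314 bins with 20 to 24 H3K4me3 reads, with a median of 7 combined-mark reads and a 99th percentile of 16. Of them, 155 bins, or 1.26%, had 16 or more combined-mark reads, and 139 of these 155 are among the 257. In the 23927 bins with 15 to 19 H3K4me3 reads, 0.330% reached 16 combined-mark reads, and in the 72766 bins with 10 to 14 it was 0.0508%. By the same rule, the 257 bins are the lower end of H3K4me3 among bins of equal combined-mark count. Bins with 16 combined-mark reads had a median of 48 H3K4me3 reads, and 8.57% of them were under 25. Among bins with 21 to 25 combined-mark reads the median was 70 and 0.538% were under 25.

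H3K4me3 chromatin lay next to most of the bins. A bin of 25 or more H3K4me3 reads was the direct neighbour of 169 of the 257, or 65.8% (59.6 to 71.5), where 1.72% of all bins not called for H3K4me3 had such a neighbour. A further 21 bins were 2 kb away and 24 were 3 to 5 kb away. The other 43 bins, or 16.7% (12.4 to 21.9), lay more than 5 kb away, as did 92.6% of all bins not called for H3K4me3. The median distance was 1 kb and the largest 1604 kb. The 1952 bins called for H3R2me2s alone had a median distance of 5 kb. A called H3K4me3 bin was next to 22.0% of them (20.2 to 23.9), and 49.3% (47.0 to 51.5) lay more than 5 kb away. The intervals of the 2 classes do not overlap at either distance, and no test between the classes was run, since bins of 1 library are not replicates. The classes were also not matched for H3K4me3, with a median of 20 reads in the 257 bins and 12 in the 1952. The 32 bins called for the combined mark and H3R2me2s without H3K4me3 had a median distance of 1.5 kb, with a called neighbour for 16 of the 32 (31.9 to 68.1%) and 21.9% (9.28 to 39.97) more than 5 kb away. Both of these intervals overlap those of the 257 bins.

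**Figure D2:**
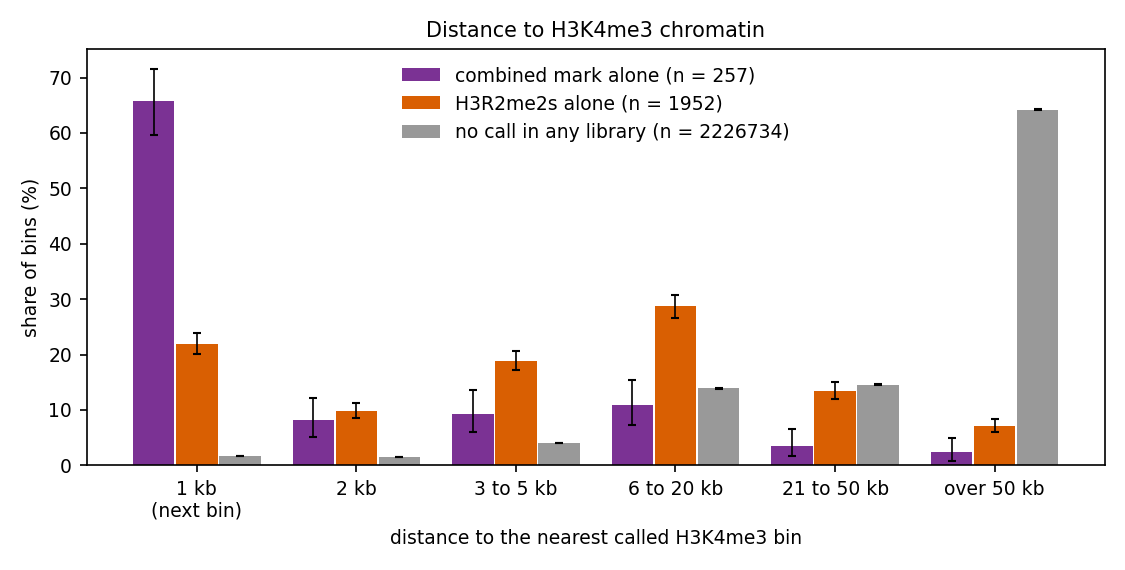
Share of bins (vertical axis, %) by distance to the nearest bin of 25 or more H3K4me3 reads (horizontal axis) for bins called for the combined mark alone, bins called for H3R2me2s alone and bins called in no library; error bars are exact 95% intervals. A called H3K4me3 bin is next to 65.8% of the bins called for the combined mark alone and 22.0% of those called for H3R2me2s alone. The classes were not matched for H3K4me3 reads.

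The share with a called neighbour went with the H3K4me3 count. Of the 139 bins with 20 to 24 H3K4me3 reads, 114, or 82.0%, had a called neighbour, beside 59.3% of all bins with such counts. Of the 73 bins with 15 to 19 reads it was 53.4%, beside 40.2% of all such bins. Of the 33 bins with 10 to 14 reads it was 39.4%, beside 15.2%. H3K4me3 averaged 6.77 times background in the 169 bins with a called neighbour and 5.17 times in the 43 bins more than 5 kb away. The combined mark averaged 9.56 and 9.10 times background in the same order, and H3R2me2s 3.06 and 3.14 times.

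The called neighbour of the 169 bins belonged to an H3K4me3 region, a set of called bins no more than 1 kb apart, and these regions had more H3K4me3 at their highest bin than regions at large. For 123 of the 169 the called bin was on 1 side. The region beside these 123 had a median width of 3 kb, as did all 18461 H3K4me3 regions, and a median of 209 H3K4me3 reads in its highest bin, against 109 over all regions. It held a called combined-mark bin in 109 of the 123 cases, or 88.6% (81.6 to 93.6), against 68.4% of all regions, and a called H3R2me2s bin in 84.6% (76.9 to 90.4), against 63.2%. The other 46 bins had called bins on both sides and thus lie, by definition, inside regions of at least 3 kb. Over all 169 the median width was 4 kb. Of these, 22 lay at regions of 1 kb, 50 at 2 to 3 kb, 87 at 4 to 9 kb and 10 at 10 kb or more. A wider region holds more bins and can so hold a call more easily, and the shares were not adjusted for width.

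The called neighbour of the 123 bins was itself called for the combined mark in 84 cases, or 68.3% (59.3 to 76.4), against 41.1% of the edge bins of all H3K4me3 regions. It was called for H3R2me2s in 60 cases, or 48.8% (39.7 to 58.0), against 28.2% of the edge bins. It had a median of 25 combined-mark, 67 H3K4me3 and 14 H3R2me2s reads, against 13, 43 and 10 reads in the edge bins.

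Over the pooled reads of the 123 bins with the called H3K4me3 bin on 1 side, all 3 marks were denser toward it. The position of reads inside a bin was not used to choose it. The side, however, was set by the H3K4me3 counts of the neighbouring bins, so the H3K4me3 slope is not independent of it. The 500 bp nearer to the called bin held 58.0% of the combined-mark reads (55.9 to 60.2), 60.4% of the H3K4me3 reads (58.4 to 62.3) and 56.4% of the H3R2me2s reads (53.0 to 59.8). Over 4 steps of 250 bp toward the called bin, the combined mark stood at 7.08, 8.47, 9.84 and 11.7 times background. H3K4me3 stood at 4.95, 5.68, 6.73 and 9.46 times, and H3R2me2s at 2.65, 2.44, 3.11 and 3.48 times. Both the combined mark and H3K4me3 were thus higher at each step. H3R2me2s was lower at the second step than at the first and higher at the later ones. By single bins, the nearer 500 bp held more combined-mark reads in 72 of the 123 and fewer in 43. For H3K4me3 it was 93 and 19 bins, and for H3R2me2s 68 and 37. In the 41 bins with under 20 H3K4me3 reads, the combined mark had 20 and 17 bins. Its steps there were 7.02, 9.70, 10.5 and 10.2 times background.

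That slope was also present in ordinary bins at the edges of H3K4me3 regions. In 6448 bins called in no library, with 20 to 24 H3K4me3 reads and a called bin on 1 side, the nearer 500 bp held 58.1% of the combined-mark reads (57.6 to 58.5) and 60.4% of the H3K4me3 reads (60.2 to 60.7). The 82 member bins with the same H3K4me3 counts had 59.4% (56.8 to 62.0) and 60.8% (58.5 to 63.1). For both marks the interval of the member bins held the value of the ordinary edge bins. Beyond the called neighbour all 3 marks were much higher. The bin 2 kb from the member bin, toward the called side, averaged 38.9 times background for the combined mark, 50.3 times for H3K4me3 and 12.9 times for H3R2me2s. On the far side, the next bin averaged 2.77, 4.15 and 2.25 times. A called H3K4me3 bin on the far side was left out by the definition of these 123 bins.

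At both borders of the member bin the combined mark was lower just outside than just inside. In steps of 100 bp, the combined mark was at 13.3 times background in the last step inside the bin on the called side and at 8.78 times in the first step outside it, although it was higher again farther on. On the other side it was at 6.68 times in the outermost step inside and at 3.23 times just outside. H3K4me3 had 10.5 inside and 15.2 outside on the called side, and 5.13 inside and 5.19 outside on the other. The borders are those of the 1 kb grid on which the bins were chosen. The combined-mark count between them was used for the choice, so the drop is not independent of it.

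**Figure D3:**
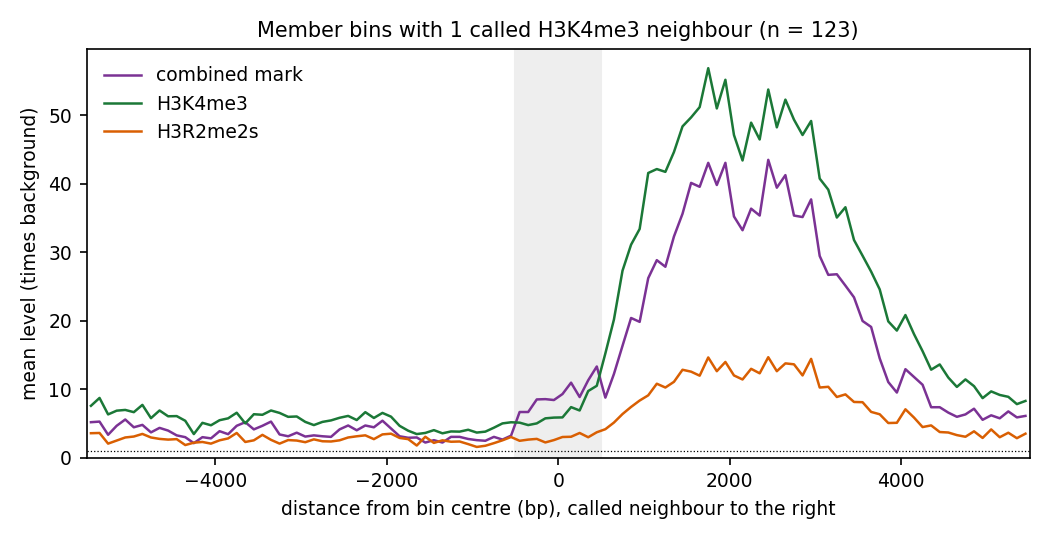
Mean level (vertical axis, times background) of the 3 marks in steps of 100 bp by distance from the bin centre (horizontal axis, bp) for the 123 bins with a called H3K4me3 bin on 1 side, turned so that this side is on the right; grey marks the member bin. The combined mark steps down at both borders of the grey area, from 13.3 to 8.78 times background on the right, before all 3 marks climb into the H3K4me3 region. The bins were chosen by their counts between these borders, so the step is not independent of the choice.

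The other 46 of the 169 bins lay between called H3K4me3 bins on both sides, as narrow gaps inside a region. Their reads were near the borders. The outer 250 bp on each side together held 71.8% of the combined-mark reads (68.7 to 74.7), 71.4% of the H3K4me3 reads (68.4 to 74.2) and 68.1% of the H3R2me2s reads (63.1 to 72.8), where an even spread gives 50%. The outer parts held more combined-mark reads than the inner parts in 36 of the 46 bins, and more H3K4me3 reads also in 36. In the 1483 gaps of the same kind that were called in no library, the outer parts held 56.5% of the combined-mark reads (55.4 to 57.5) and 56.7% of the H3K4me3 reads (56.0 to 57.3). With 20 to 24 H3K4me3 reads, 535 such gaps had 53.4% and 55.4%. The shares in the 46 bins lay above those of the other gaps for all 3 marks, with intervals that do not overlap. For H3R2me2s the other gaps had 54.9%, and 52.5% at 20 to 24 H3K4me3 reads. The combined-mark limit set the 46 bins apart from the other gaps. The combined mark averaged 10.3 times background in the 46, against 3.31 times in the 1483 and 3.98 times in the 535. The sets were thus not matched for that mark, and whether the limit favoured reads near the borders was not tested. The intervals pool reads over bins and leave out differences between bins.

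The gaps included the bins with most combined-mark reads. Of the 10 bins with most combined-mark reads, 8 had a called H3K4me3 bin on both sides. The highest was chromosome 7, 133646001 to 133647000 (mm9, as all positions here), with 31 combined-mark, 19 H3K4me3 and 11 H3R2me2s reads, inside an H3K4me3 region of 6 kb. Its higher neighbour had 257 combined-mark and 442 H3K4me3 reads. Second was chromosome 5, 111082001 to 111083000, with 28, 20 and 13 reads, followed by chromosome 17, 46994001 to 46995000, with 25, 24 and 11 reads. The other gaps among the 10 had 22 or 23 combined-mark reads and 21 to 24 H3K4me3 reads. Of 3 bins tied at 22 combined-mark reads, 1 is among the 10, by fewer H3K4me3 reads and then by position. These gaps were at chromosome 11, 97141001 to 97142000, chromosome 12, 109417001 to 109418000, chromosome 7, 104230001 to 104231000, chromosome 9, 21351001 to 21352000, and chromosome 1, 168931001 to 168932000. For each of these 8, the 1 kb window with most combined-mark reads within 500 bp of the bin held 77 to 181 H3K4me3 reads. Each of these windows takes in part of a called neighbour, so a count above the limit of 25 is not particular to the bin. The same windows were not measured in other gaps.

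The remaining bins of the 10 were not gaps. Chromosome 2, 29109001 to 29110000, lay 2 kb from a called H3K4me3 bin and had 23 combined-mark, 18 H3K4me3 and 4 H3R2me2s reads. All of its combined-mark reads had distinct positions or strands, with 10 of 23 on the plus strand. Its ratio of the combined mark to H3K4me3 was 2.49 (1.29 to 4.90), and no window within 500 bp held more than 19 H3K4me3 reads. Chromosome 14, 51620001 to 51621000, had 23, 18 and 12 reads beside a region of 1 kb with 26 H3K4me3 reads. H3K4me3 around that bin, in uncalled bins more than 5 and up to 50 kb away, stood at 4.39 times background, the highest such value of the 257.

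The 43 bins more than 5 kb from called H3K4me3 chromatin also held H3K4me3. The combined mark ranged from 16 to 21 reads with a median of 17. H3K4me3 ranged from 4 to 24 reads with a median of 16, and H3R2me2s from 0 to 14 with a median of 8. Their combined-mark to H3K4me3 ratio was 2.14 (1.93 to 2.39), against 1.72 (1.64 to 1.81) in the 169 neighbouring bins. Both counts chose the bins, and the combined mark had a median of 17 reads in either group. The ratios thus mostly restate the H3K4me3 counts, which averaged 15.4 reads in the 43 bins and 20.2 in the 169. In the bins on either side, the combined mark averaged 2.39 and 2.40 times background and H3K4me3 2.93 and 3.03 times. In steps of 100 bp, the combined mark was at 10.6 and 9.74 times background inside the 2 borders and at 4.25 and 3.25 times just outside. H3K4me3 was at 4.84 and 4.997 times inside and at 4.06 and 4.68 times outside. As in the bins beside regions, the combined mark was lower just outside both borders than just inside. These borders too are those of the grid on which the bins were chosen, so the drop is not independent of the choice. It does not give the width of an enriched stretch.

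**Figure D4:**
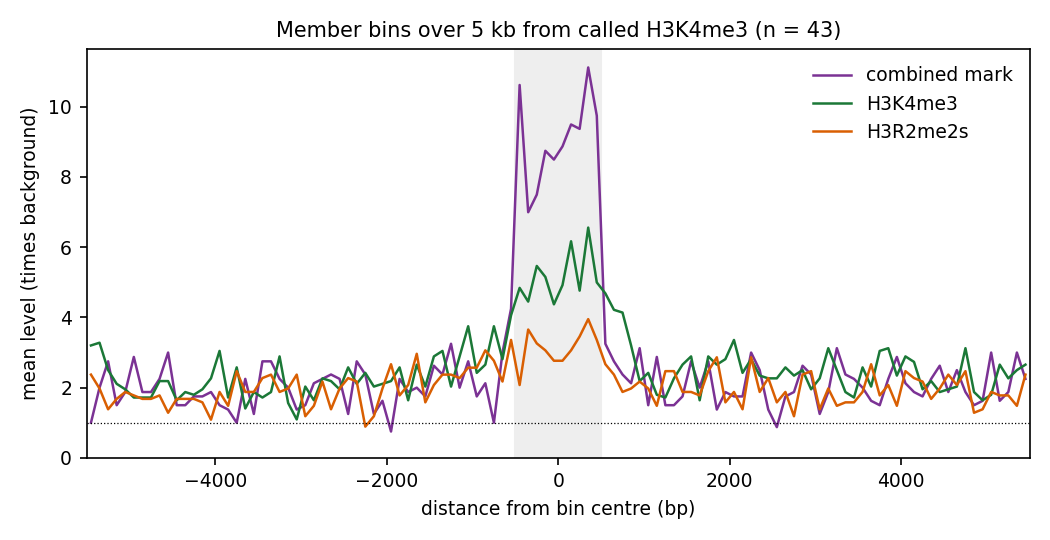
Mean level (vertical axis, times background) of the 3 marks in steps of 100 bp by distance from the bin centre (horizontal axis, bp) for the 43 bins more than 5 kb from a called H3K4me3 bin; grey marks the member bin. The combined mark stands at 6.997 to 11.1 times background over the grey area and at 4.25 and 3.25 times just outside. H3K4me3 is at 4.06 and 4.68 times just outside. The bins were chosen by their counts between these borders, so the drop is not independent of the choice.

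The 5 bins farthest from called H3K4me3 chromatin had 16 to 19 combined-mark reads. Chromosome 3, 25446001 to 25447000, was 1604 kb away and had 17 combined-mark, 19 H3K4me3 and 9 H3R2me2s reads, of which 15 combined-mark reads were distinct. Chromosome 6, 113954001 to 113955000, was 264 kb away with 19, 17 and 12 reads, and a window within 500 bp of it held 35 H3K4me3 reads. Chromosome 8, 73655001 to 73656000, was 139 kb away with 17, 11 and 11 reads, in a neighbourhood at 0.424 times the genome-wide H3K4me3 background. Chromosome 1, 94671001 to 94672000, was 127 kb away with 16, 19 and 5 reads. Chromosome 7, 17742001 to 17743000, was 98 kb away with 16, 8 and 7 reads. None of these 5 thus lacked H3K4me3 reads, and only the one on chromosome 6 reached 25 of them in a moved window.

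The bins with fewest H3K4me3 reads were a small group. At chromosome 10, 5183001 to 5184000, there were 17 combined-mark and 4 H3K4me3 reads, a CPM ratio of 8.29 (2.70 to 33.9), beside a called H3K4me3 bin of 32 reads. At chromosome 17, 51515001 to 51516000, the counts were the same, with 15 of the 17 combined-mark reads distinct, and the nearest called bin was 11 kb away. At chromosome 3, 126386001 to 126387000, there were 16 and 4 reads, a ratio of 7.80 (2.52 to 32.1), with 12 H3R2me2s reads. The next were chromosome 16, 5258001 to 5259000, with 16 and 5 reads, and chromosome 12, 94367001 to 94368000, with 16 and 6. Then came chromosome 7, 133780001 to 133781000, and chromosome 8, 108610001 to 108611000, each with 16 and 7 reads. The last of these 10 were the chromosome 7 bin at 17742001, with 16 and 8, and chromosome 2, 69589001 to 69590000, and chromosome 4, 58913001 to 58914000, with 16 and 9 each. In all, 4 of the 257 had 9 H3K4me3 reads, each with 16 combined-mark reads, and those named come first in the genome. In none of the 10 did a window within 500 bp reach 25 H3K4me3 reads, and the highest such windows held 5 to 18. All 10 had 16 or 17 combined-mark reads, 1 or none above the limit.

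Only 1 pair of the 257 bins were neighbours of each other, and no run was longer. The pair was chromosome 2, 116962001 to 116964000, which lay 11 kb from a called H3K4me3 bin. Its bins had 16 and 16 combined-mark reads, 24 and 11 H3K4me3 reads and 5 and 10 H3R2me2s reads. The H3K4me3 level around them was 3.52 and 3.55 times background.

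Reads were also counted in moved windows and on a second grid. A 1 kb window moved by up to 500 bp reached 25 H3K4me3 reads for 172 of the 257 bins, among them 153 of the 169 with a called neighbour and 8 of the 43 more than 5 kb away. A highest value over several windows is raised by the search itself, and a window moved toward a called neighbour takes in up to 500 bp of it. On a second grid whose bins start 500 bp later, 156 of the 257 overlapped a bin called for H3K4me3, and 121 overlapped a bin called for the combined mark and H3K4me3 together. A bin called for the combined mark alone overlapped 28 of them, or 10.9% (7.36 to 15.4), although the second grid had 279 such bins. No overlapping bin was called for the combined mark at all in 111 of the 257, including 35 of the 43 far ones. Of the 156 that overlapped a bin called for H3K4me3, 145 had a called neighbour, of which a bin of the second grid takes in 500 bp. None of these counts was made for other bins, so none is shown to be particular to the 257.

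For bins chosen anew, levels were then taken from reads that had no part in the choice. The reads were put at random into 5 parts, bins were chosen on 4 parts at limits of 13, 20 and 12 reads for the combined mark, H3K4me3 and H3R2me2s, and levels were read from the remaining part. Each of the 5 choices gave 392 to 449 bins, and the choices share reads, so the intervals are too narrow. In the reads that chose the bins, the combined mark stood at 9.31 times background and H3K4me3 at 5.73 times. In the remaining reads, the combined mark stood at 5.06 times (4.91 to 5.22), H3K4me3 at 6.93 times (6.78 to 7.08) and H3R2me2s at 3.35 times (3.23 to 3.46). The CPM ratio of the combined mark to H3K4me3 was 0.892 (0.858 to 0.926) in the remaining reads and 1.98 (1.95 to 2.01) in those that chose the bins. In the remaining reads H3K4me3 was therefore the higher of the pair in multiples of background. On average the combined mark was then below its calling limit of 8.60 times background, and H3K4me3 below its limit of 8.39.

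**Figure D5:**
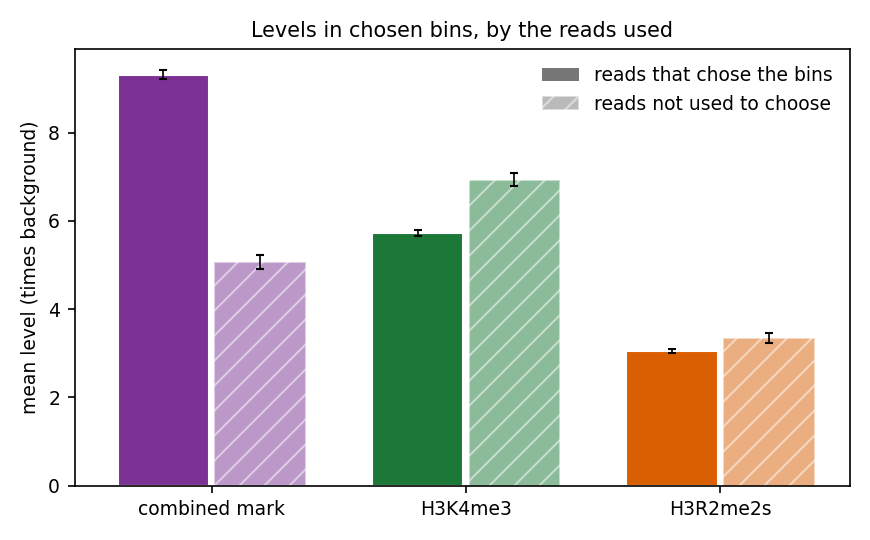
Mean level (vertical axis, times background) of the 3 marks in bins chosen on 4 of 5 parts of the reads, from the reads that chose the bins (solid) and from the remaining part (hatched), summed over 5 choices; error bars are exact Poisson 95% intervals. The combined mark is at 9.31 times in the choosing reads and 5.06 times in the others, and H3K4me3 at 5.73 and 6.93 times.

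Few of the combined-mark reads in the bins were repeats. Of the combined-mark reads in the 257 bins, 3.23% (2.73 to 3.79) repeated a position and strand, against 2.64% in the whole library. For H3K4me3 it was 2.60%, against 6.20% in its whole library. The plus strand held 50.7% of the combined-mark reads (49.2 to 52.2). No bin had more than 4 repeated combined-mark reads, and 204 of the 257 still had 16 or more when each position and strand was counted once.

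The bins were spread over 20 of 21 chromosomes, with chromosome Y holding none of its 49 combined-mark bins, which allows a share of up to 7.25% by the exact interval. Chromosome 2 held 25, chromosome 7 held 22 and chromosome 11 held 21. As a share of the combined-mark bins of a chromosome they ran from 0.357% (0.0736 to 1.04) on chromosome X to 1.11% (0.590 to 1.88) on chromosome 14, and these intervals overlap. The median level around the bins was above background in each library, and 241 of the 257 were above it in all 3. That count was not made for other classes. Background leaves out bins within 5 kb of a call, while the uncalled bins used here can lie beside one. In uncalled bins more than 5 and up to 50 kb away, the medians were 1.76 times background for the combined mark, 2.01 for H3K4me3 and 1.77 for H3R2me2s. Single bins ran from 0.307 to 2.88, from 0.424 to 4.39 and from 0.212 to 3.10 in the same order. Around bins called for H3R2me2s alone the medians were 1.90, 2.10 and 1.91, and around bins called for H3K4me3 alone 1.71, 1.94 and 1.71. Around bins called for the combined mark and H3K4me3 without H3R2me2s they were 1.64, 1.84 and 1.65. Medians of 1.64 to 2.10 times background were thus found around all of these classes, and their part in the calls was not tested.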

How the data were processed

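Each line of the deposited files is 1 mapped read, 39 bases long, and counts per bin are therefore raw read counts with no scaling by the authors. The genome build was mm9 per the submitters' processing notes; the aligner and any removal of duplicates are not given in the sources used here. Libraries were made from sonicated nuclei, per the labels' protocols, with 15 PCR cycles and fragments of 100 to 500 bp. Each read was moved 75 bp in the 3-prime direction and counted in 1 kb bins (Python 3.11.15, numpy 2.4.6, scipy 1.17.1). Each limit was the higher of 4 times the mean per bin and the lowest count with a Poisson upper tail under 1e-06. Shares have Clopper-Pearson intervals and ratios exact binomial intervals. With 1 library per antibody no test between antibodies was made. The bins, classes and measures were chosen with earlier results of these data known. Named bins are the 10 with most combined-mark reads, the 10 with fewest H3K4me3 reads, the 5 farthest from H3K4me3 and runs of neighbouring bins. Ties were ordered by the other mark's count, then by position. The functions were tested on simulated data. No mm9 genome or annotation was used, so no gene or sequence is given.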

Additional observations from a re-analysis of the deposited data

How the results depend on the processing

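Of 63 values recomputed under 9 alternatives, 35 moved by less than their interval, or 1.5 times for the number of bins, and 28 moved more. The number of bins stayed between 232 and 279 when reads were not moved, moved 150 bp, binned from 500 bp later, counted once per position and strand, or without chromosomes X and Y. Yet 150 of the 257 bins were chosen again with reads not moved and 142 with reads moved 150 bp. With libraries thinned to equal depth, where all 3 limits were 15 reads, there were 797 bins, with the combined mark at 9.04 and H3K4me3 at 7.03 times background, a CPM ratio of 1.56 and 61.1% of combined-mark reads in the 500 bp facing the called bin. An H3K4me3 limit of 20 reads gave 118 bins, H3K4me3 at 5.05 times background, a ratio of 2.28, a called neighbour for 54.2%, 22.0% beyond 5 kb and 53.2% of reads facing. A combined-mark limit of 20 reads gave 32 bins, levels of 11.7 and 6.96 times background for the combined mark and H3K4me3, a ratio of 2.04, 87.5%, 6.25% and 63.1% for the same shares. Counting each position and strand once gave 6.53 times background for H3K4me3 and a ratio of 1.72, and moving reads 150 bp gave 60.6% of reads facing. With bins chosen on a random 50% of the reads at 8, 13 and 8 reads, there were 2016 bins, and the other reads gave 3.75 and 5.24 times background for the combined mark and H3K4me3, a ratio of 0.872, 25.1% with a called neighbour, 33.9% beyond 5 kb and 55.7% of reads facing. Of those 2016 bins, 53 met the same limits again in the other reads. The choice on 4 of 5 parts was added after these values were seen, and gave 5.06 and 6.93 times background in the same order and a ratio of 0.892. The causes of these moves were not tested. No paired analysis was possible because there was a single library for each antibody, which also left none to omit. The member bins rest on 16 to 31 combined-mark reads each, so single bins are not resolved at this depth.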
